A study of Mus musculus with 6 samples.

Results

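The lining of blood vessels was followed in CT26 tumors through 10 genes that define endothelial cells and the contacts between them: Pecam1, Cdh5, Emcn, Esam, Egfl7, Cldn5, Robo4, Eng, Plvap and Vwf. They were taken by name from the 23557 genes of the expression table, by a rule that uses no measured value, although earlier results of these data were known when the rule was made, and the VEGF and TIE receptors were left out. The tumors came from CT26 cells, a colorectal carcinoma line of BALB/c mice, of which 500000 were injected under the skin of 7-week-old female BALB/c mice. From day 6, the mice received intraperitoneal NaCl, the vehicle (3 tumors), or H89 at 10 mg/kg, a kinase inhibitor best known for its action on protein kinase A (3 tumors), 2 times a week. Each frozen tumor, removed on day 14, was sequenced whole, so that a value mixes cancer cells, vessels, immune cells and surrounding tissue. The labels number the tumors within each group but name neither the mouse nor a batch, and p-values therefore measure the spread between these 6 tumors.

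Endothelial cells are held together by adherens junctions, built on VE-cadherin, and by tight junctions, in which claudin-5 is the main claudin of the endothelium. Other surface proteins of the lining screen it from blood cells, form the diaphragms of its pores and caveolae, or modulate signals of the TGF-beta family and of axon guidance cues. In tumors, vessels are often irregular and leaky, and these genes are widely used to trace them in whole tissue.

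All 10 genes were detected in all 6 tumors, and all 10 passed the filter of a mean of at least 0.5 CPM (a gene's estimated read count in every 1000000 counts of the tumor). No gene of the 10 had a Benjamini-Hochberg adjusted p under 0.05 by edgeR's quasi-likelihood test, beside 1.59% of all 13118 genes tested (0.724% lower and 0.861% higher). At an unadjusted p under 0.05, Cldn5, Esam, Egfl7 and Plvap were lower in H89-treated tumors, that is 4 of 10, beside 11.9% of all genes. None was higher at that threshold, beside 13.1% of all genes (25.0% in either direction). The log2 fold change of H89 against NaCl was below 0 for 8 of 10 genes, beside 49.4% of all genes, and its median was -0.34, beside 0.004 over all genes. In whole tumors, fewer endothelial cells and less RNA per endothelial cell cannot be told apart. The count of 4 depended on single tumors: it was 6 without NaCl tumor 1, 1 without NaCl tumor 2, 0 without NaCl tumor 3, 1 without H89-treated tumor 1, 5 without H89-treated tumor 2 and 1 without H89-treated tumor 3. The share of all genes at an unadjusted p under 0.05 was not computed for these fits. The median log2 fold change of the 10 was -0.21 without NaCl tumor 3, -0.54 without NaCl tumor 1 and -0.56 when H89-treated tumor 2 was left out.

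**Figure D1:**
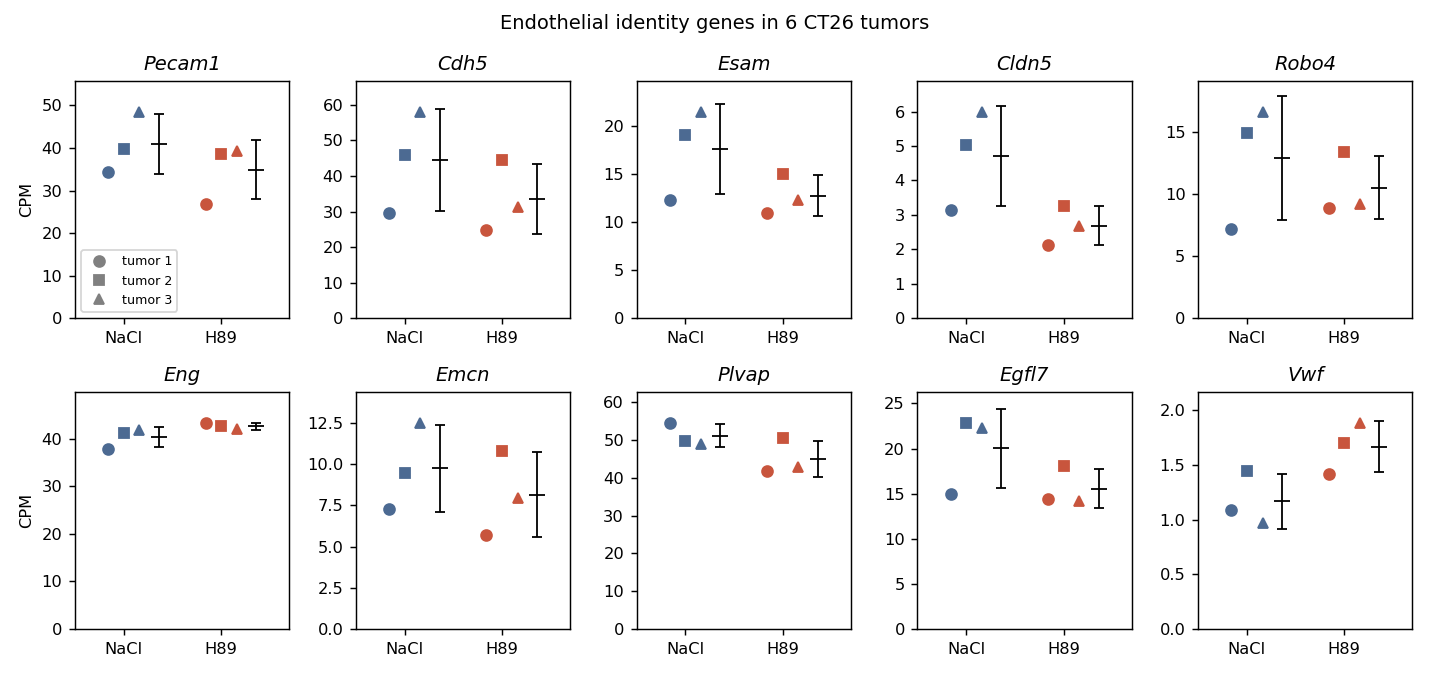
Level of each of the 10 endothelial genes (y axis, CPM, from 0) in the 3 NaCl (blue) and 3 H89-treated (red) tumors. Symbols give the tumor number, and the black line and bars give the mean ± SD (n = 3). NaCl tumor 1 and H89-treated tumor 1 are each the lowest of their group for 8 of 10 genes.

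The sequence upstream of transcription was examined where the RefSeq promoter table (GRCm38.p6) held it, which was the case for 5 of the 10 genes, with 7 windows of 300 bases (250 before and 50 after the start). Pecam1, Cdh5, Esam, Plvap and Vwf had no window. ETS factors such as ERG and GATA factors such as GATA2 are known regulators of endothelial genes, and the windows were searched on both strands for the ETS motif ACAGGAA, for a further ETS motif, CCGGAAG, and for the GATA motif AGATAAG. The motifs do not contain each other, and no matches overlapped. The 250 bases before the start are printed below for the gene with the largest difference (Cldn5) and the gene with nearly none (Eng). They are also printed for the genes whose windows held a match, Emcn and Egfl7, with the match in capitals. Egfl7 is shown at only 1 of its 3 starts. All 4 genes lie on the plus strand.
Cldn5, chr16:18776597-18776846: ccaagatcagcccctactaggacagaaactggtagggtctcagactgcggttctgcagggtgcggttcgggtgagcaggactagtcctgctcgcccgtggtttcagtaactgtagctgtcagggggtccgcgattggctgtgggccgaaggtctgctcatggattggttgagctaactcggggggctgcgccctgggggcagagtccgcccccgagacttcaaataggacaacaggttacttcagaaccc
Eng, chr2:32646345-32646594: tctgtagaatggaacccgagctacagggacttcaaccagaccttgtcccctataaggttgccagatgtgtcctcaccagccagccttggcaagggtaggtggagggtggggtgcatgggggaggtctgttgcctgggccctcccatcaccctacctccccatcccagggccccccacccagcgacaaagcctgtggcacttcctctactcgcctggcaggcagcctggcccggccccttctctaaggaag
Emcn, chr3:137340828-137341077: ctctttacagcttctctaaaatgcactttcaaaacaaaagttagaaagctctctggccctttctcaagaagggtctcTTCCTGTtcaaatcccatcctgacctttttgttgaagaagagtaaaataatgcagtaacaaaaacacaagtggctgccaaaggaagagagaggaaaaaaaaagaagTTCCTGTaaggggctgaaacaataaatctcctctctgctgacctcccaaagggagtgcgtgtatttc
Egfl7, chr2:26583615-26583864: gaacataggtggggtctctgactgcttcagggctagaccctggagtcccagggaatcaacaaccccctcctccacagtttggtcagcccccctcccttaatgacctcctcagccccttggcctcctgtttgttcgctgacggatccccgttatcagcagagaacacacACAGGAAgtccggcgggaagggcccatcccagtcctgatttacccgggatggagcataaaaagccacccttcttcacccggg
ACAGGAA was found in 3 of the 7 windows, which belong to 2 of the 5 genes, and 8.67% of all 32851 promoter windows hold it. Emcn held it on the reverse strand, read as TTCCTGT, at 2 places, with first bases at positions -173 and -67 from the start. Egfl7 held it on the forward strand in 2 of its 3 windows, at position -82 in the window printed and at -91 in another. CCGGAAG (8.86% of all windows) and AGATAAG (3.04%) were in none of the 7 windows. A match is a string of letters, and neither a match nor its absence was set against binding data.

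The adherens and lateral contacts come first. Cdh5 encodes VE-cadherin, the transmembrane cadherin of endothelial adherens junctions, and lies at chr8:104101625-104144511 (GRCm38, GENCODE M21, as are all gene positions here). Its level was 29.55, 45.96 and 57.99 CPM in NaCl tumors 1 to 3 and 24.9, 44.4 and 31.19 CPM in H89-treated tumors 1 to 3. The groups overlapped, with NaCl tumor 1 below H89-treated tumors 2 and 3. The means were 44.5 ± 14.28 and 33.5 ± 9.951 CPM (SD, n = 3), and the log2 fold change was -0.48 (SE 0.26, edgeR unadjusted p = 0.107, adjusted p = 0.295). Leaving out 1 tumor moved it between -0.73 and -0.24 (NaCl tumor 3 left out), and it passed an unadjusted p under 0.05 in 2 of these 6 fits, when NaCl tumor 1 (-0.69) or H89-treated tumor 2 (-0.73) was left out.

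Pecam1 (chr11:106654217-106750628, minus strand) encodes CD31, an adhesion molecule of endothelial borders that platelets and some leukocytes also carry. It was at 34.47, 39.71 and 48.46 CPM in NaCl tumors and at 26.88, 38.6 and 39.25 CPM in H89-treated tumors. Only H89-treated tumor 1 lay below every NaCl tumor. The difference in log2 fold change was -0.30 (SE 0.16, edgeR unadjusted p = 0.0949, adjusted p = 0.277). It was -0.40 without NaCl tumor 1, the 1 of 6 such fits with an unadjusted p under 0.05, and -0.17 without NaCl tumor 3 or without H89-treated tumor 1 (edgeR unadjusted p = 0.329 and 0.266).

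Esam (chr9:37528078-37538319) encodes an immunoglobulin-family protein of endothelial tight junctions, also found on platelets. It was at 12.32, 18.99 and 21.41 CPM in NaCl tumors and at 10.93, 15.02 and 12.25 CPM in H89-treated tumors. NaCl tumors 2 and 3 lay above all H89-treated tumors, while NaCl tumor 1 lay among them. The means were 17.57 ± 4.71 and 12.73 ± 2.088 CPM (SD, n = 3), with a log2 fold change of -0.53 (SE 0.21, edgeR unadjusted p = 0.0346, adjusted p = 0.171). The unadjusted p was under 0.05 in 2 of the 6 fits that left out a tumor and was lost without NaCl tumor 2 (log2 fold change -0.48), NaCl tumor 3 (-0.37), H89-treated tumor 1 (-0.46) or H89-treated tumor 3 (-0.48).

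Cldn5 (chr16:18776847-18778262, a single coding transcript) encodes claudin-5, the tight junction protein that restricts passage of small molecules between endothelial cells. It was at 3.131, 5.025 and 5.989 CPM in NaCl tumors and at 2.137, 3.254 and 2.683 CPM in H89-treated tumors. H89-treated tumors 1 and 3 lay below all NaCl tumors, and H89-treated tumor 2 lay slightly above NaCl tumor 1. After the TMM scaling that the test uses, the groups no longer overlapped, beside 15.5% of all genes that were lower without overlap on that scale. Cldn5 had the lowest log2 fold change of the 10 genes, -0.87 (SE 0.27, edgeR unadjusted p = 0.0126), or 0.545 times the NaCl level, from 4.715 ± 1.454 to 2.691 ± 0.5588 CPM (SD, n = 3). Its adjusted p was 0.11 by edgeR and 0.0379 by DESeq2, the lowest of the 14 alternatives that could be fitted, whose highest was 0.264. By DESeq2, 5.68% of all genes were lower and 4.75% higher at an adjusted p under 0.05, and Cldn5 was the only one of the 10. The gene rests on 61 to 167 estimated counts per tumor. It kept an unadjusted p under 0.05 in 5 of the 6 fits that left out a tumor, and without NaCl tumor 3 the log2 fold change was -0.67 (edgeR unadjusted p = 0.0518).

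Partners of VE-cadherin and claudin-5 in adherens and tight junctions, some inside the cell and some in its membrane, were set beside these genes. Ctnnd1, encoding p120-catenin, which holds VE-cadherin at the membrane, had a log2 fold change of -0.05 (SE 0.09, edgeR unadjusted p = 0.6). Ctnnb1, encoding beta-catenin, had one of 0.00 (SE 0.11, edgeR unadjusted p = 0.964). Tjp1, encoding the tight junction scaffold ZO-1, had means of 105.7 ± 10.38 and 134 ± 22.81 CPM (SD, n = 3) under NaCl and H89, with a log2 fold change of 0.27 (SE 0.12, edgeR unadjusted p = 0.0578). Over all genes, 13.1% were higher and 11.9% lower at an unadjusted p under 0.05. Of the 10 partner genes tested, 1 was higher and 0 were lower at an unadjusted p under 0.05, and the median log2 fold change was -0.02. The gene that was higher was Jam2, which encodes a junctional adhesion molecule of endothelium, at 2.567, 3.464 and 2.452 CPM in NaCl tumors and 4.414, 4.577 and 4.912 CPM in H89-treated tumors (log2 fold change 0.64, edgeR unadjusted p = 0.0112, adjusted p = 0.106).

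Eng and Robo4 encode receptors. Eng (chr2:32646595-32682669) encodes endoglin, a coreceptor for BMP9 and TGF-beta that acts with ALK1 and is also carried by macrophages and stromal cells. It was at 37.93, 41.23 and 41.97 CPM in NaCl tumors and at 43.44, 42.65 and 42.02 CPM in H89-treated tumors. By CPM the H89-treated tumors all lay above the NaCl tumors, narrowly between NaCl tumor 3 and H89-treated tumor 3, beside 20.5% of all genes that were higher without overlap. After TMM scaling the groups overlapped, and the log2 fold change was 0.01 (SE 0.08, edgeR unadjusted p = 0.879), the smallest of the 10 in size. Its sign turned under 4 of 15 alternatives, with values between -0.03 and 0.05 over the fits that left out a tumor. Eng shares 61 exon bases with Fpgs on the opposite strand, and the sources used here do not say whether counting used strand. Its partner Acvrl1, encoding ALK1, had a log2 fold change of 0.12 (SE 0.14, edgeR unadjusted p = 0.429). At an unadjusted p under 0.05, 13.1% of all genes were higher and 11.9% lower. Of 12 tested genes of the endoglin pathway, 1 was higher and 0 were lower at an unadjusted p under 0.05 (median 0.01). That gene was Id3, a target of BMP signals, with means of 3.958 ± 0.3007 and 5.734 ± 0.679 CPM under NaCl and H89 (SD, n = 3, log2 fold change 0.47, edgeR unadjusted p = 0.0299, adjusted p = 0.16). The ligand genes Gdf2 and Bmp10 were at most 0.03503 CPM, which is 1 count, in every tumor.

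Robo4 (chr9:37401897-37415115) encodes an endothelial roundabout receptor known to stabilize vessels and to bind UNC5B. It was at 7.19, 14.85 and 16.57 CPM in NaCl tumors and at 8.862, 13.39 and 9.212 CPM in H89-treated tumors. NaCl tumor 1 was the lowest of all 6, so that the NaCl group spanned the H89-treated group. The log2 fold change was -0.36 (SE 0.30, edgeR unadjusted p = 0.269, adjusted p = 0.49). It was -0.64 without NaCl tumor 1 (edgeR unadjusted p = 0.0176) and -0.57 without H89-treated tumor 2, but -0.14 without NaCl tumor 3 (edgeR unadjusted p = 0.68) and -0.25 without NaCl tumor 2 or H89-treated tumor 3. Unc5b had a log2 fold change of -0.07 (SE 0.10, edgeR unadjusted p = 0.489), and the guidance ligand gene Slit2 one of 0.36 (SE 0.15, edgeR unadjusted p = 0.0465, adjusted p = 0.193). Of all genes, 13.1% were higher at an unadjusted p under 0.05. Of 4 SLIT and ROBO pathway genes tested, 2 were higher at an unadjusted p under 0.05, Slit2 and Flrt2 (0.52, edgeR unadjusted p = 0.0125), and 4 other genes of that list were under the filter.

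Emcn, Plvap and Egfl7 belong to the surface, the pores and the surrounding matrix of the vessel. Emcn (chr3:137341067-137432185) encodes endomucin, a sialomucin of venous and capillary endothelium that hinders leukocyte adhesion. It was at 7.259, 9.458 and 12.52 CPM in NaCl tumors and at 5.71, 10.83 and 7.919 CPM in H89-treated tumors, with overlap of the groups. The log2 fold change was -0.33 (SE 0.26, edgeR unadjusted p = 0.248, adjusted p = 0.466), and it passed an unadjusted p of 0.05 in 0 of the 6 fits that left out a tumor, with values from -0.58 without H89-treated tumor 2 to -0.11 without NaCl tumor 3.

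Plvap (chr8:71497765-71511752, minus strand) encodes the protein of the diaphragms that span fenestrae and caveolae. It was at 54.56, 49.65 and 49.03 CPM in NaCl tumors and at 41.75, 50.47 and 42.76 CPM in H89-treated tumors. H89-treated tumor 2 lay among the NaCl tumors and H89-treated tumors 1 and 3 below them. After TMM scaling the groups did not overlap, beside 15.5% of all genes that were lower without overlap on that scale. The means were 51.08 ± 3.031 and 45.0 ± 4.768 CPM (SD, n = 3), with a log2 fold change of -0.25 (SE 0.10, edgeR unadjusted p = 0.0409, adjusted p = 0.182). The unadjusted p was under 0.05 in 1 of the 6 fits that left out a tumor, the one without H89-treated tumor 2. It was lost without NaCl tumor 1 (log2 fold change -0.19), NaCl tumor 2 (-0.29), NaCl tumor 3 (-0.29), H89-treated tumor 1 (-0.23) or H89-treated tumor 3 (-0.20). Among the 4 genes lower at an unadjusted p, Plvap differed least in size. It was also the only one of the 10 genes highest in NaCl tumor 1.

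Egfl7 (chr2:26580014-26593120) encodes a secreted protein of the endothelial matrix, and an intron of the gene is the known home of miR-126, an endothelial microRNA. The mature sequence from RefSeq, with its seed (bases 2 to 8) in capitals, lies at chr2:26591402-26591423 on the plus strand.
mmu-miR-126a-3p: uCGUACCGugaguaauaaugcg
The microRNA itself was not measured in this table, and in GENCODE M21 its bases overlap an exon of at least 1 Egfl7 transcript. Egfl7 was at 15.0, 22.87 and 22.24 CPM in NaCl tumors and at 14.43, 18.02 and 14.16 CPM in H89-treated tumors. NaCl tumors 2 and 3 lay above every H89-treated tumor, and NaCl tumor 1 lay among them. The log2 fold change was -0.43 (SE 0.18, edgeR unadjusted p = 0.0423, adjusted p = 0.184). The unadjusted p was lost without NaCl tumor 2 (log2 fold change -0.34), NaCl tumor 3 (-0.35), H89-treated tumor 1 (-0.41) or H89-treated tumor 3 (-0.35). Egfl7 shares 264 exon bases with Gm20532 on the same strand and 64 with Agpat2 on the opposite strand, and reads there could be assigned to either gene.

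Vwf (chr6:125546774-125686679) encodes von Willebrand factor, the clotting protein that endothelial cells store in Weibel-Palade bodies and that megakaryocytes also make. It was at 1.088, 1.445 and 0.9666 CPM in NaCl tumors and at 1.419, 1.699 and 1.886 CPM in H89-treated tumors. H89-treated tumors 2 and 3 lay above every NaCl tumor, and H89-treated tumor 1 lay just below NaCl tumor 2. The log2 fold change was 0.43 (SE 0.25, edgeR unadjusted p = 0.124, adjusted p = 0.32), above 0 in all 6 fits that left out a tumor (0.31 to 0.59) but under an unadjusted p of 0.05 in none. After quantile normalization it was 0.07 by limma (unadjusted p = 0.695). It rests on 27 to 58 estimated counts per tumor, the fewest of the 10 genes, and some of these counts were not whole numbers. Selp, which encodes P-selectin, another cargo of Weibel-Palade bodies that platelets carry too, was at 91.85, 78.03 and 90.48 CPM in NaCl tumors and 29.7, 54.45 and 64.91 CPM in H89-treated tumors (log2 fold change -0.89, SE 0.23, edgeR unadjusted p = 0.00508, adjusted p = 0.0827). The difference between the fold changes of Vwf and Selp was not tested.

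**Figure D2:**
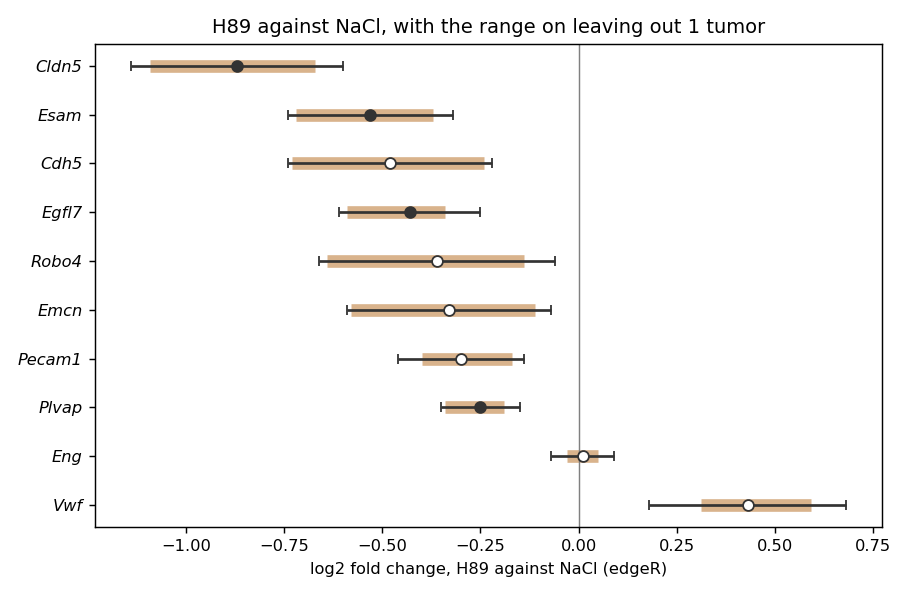
Log2 fold change of H89 against NaCl (x axis) for each of the 10 endothelial genes by edgeR, as points with bars of 1 SE. Filled points have an unadjusted p under 0.05, open points do not, and the tan band spans the 6 fits that each left out 1 tumor. Cldn5 has the lowest value (-0.87), and the bands of Eng and Vwf reach or lie above 0.

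Per kilobase of the longest coding transcript in GENCODE, the levels in NaCl tumors had the order Plvap, Egfl7, Pecam1, Eng, Cdh5, Esam, Emcn, Cldn5, Robo4 and Vwf. Plvap stood at 25.71 ± 1.526 CPM per kilobase (SD, n = 3) and Egfl7 at 14.4 ± 3.144. Pecam1 (11.88 ± 2.055), Eng (11.8 ± 0.6288), Cdh5 (11.14 ± 3.573) and Esam (9.422 ± 2.525) followed, and neighbours in this order from Egfl7 to Esam differed by less than the SD of the higher or the lower gene. Emcn (3.765 ± 1.02), Cldn5 (3.33 ± 1.027) and Robo4 (2.599 ± 1.008) formed a lower step, also within their spread. Vwf was at 0.132 ± 0.02817 CPM per kilobase, the lowest level. These values use transcript length as annotated, not the length the authors' quantifier used.

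Several of the 10 genes shared an order over the tumors. NaCl tumor 1 was the lowest NaCl tumor for 8 of 10 genes and NaCl tumor 3 the highest for 7. Among H89-treated tumors, tumor 1 was the lowest for 8 and tumor 2 the highest for 7. The mean of log2(CPM + 0.5) over the 10 genes was 3.71, 4.14 and 4.25 in NaCl tumors and 3.59, 4.04 and 3.80 in H89-treated tumors. The groups overlapped on this measure, and the lowest and highest tumor of each group lay further apart than the group means. Pecam1, Egfl7, Eng, Plvap and Vwf each departed from this order in at least 1 group.

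This order was seen in some lists outside the 10 and not in others. Over 26 other genes of broad endothelial expression, the mean of log2(CPM + 0.5) was 3.38, 3.79 and 3.92 in NaCl tumors and 3.39, 3.75 and 3.55 in H89-treated tumors. Over 7 VEGF and TIE receptor genes it was 3.87, 4.27 and 4.56, and then 3.90, 4.50 and 4.30. These genes include Nrp2 and Nrp1, at means of 238.7 and 55.46 CPM in NaCl tumors, beside 31.96 CPM for Flt1, the next most abundant. Pericyte genes, which mark the mural cells around vessels, gave 2.98, 3.17 and 3.51 and then 2.72, 3.25 and 2.88 over 11 genes. Macrophage genes were also lowest in tumor 1 of each group, at 5.97, 6.75 and 6.63 and then 6.46, 6.74 and 6.84, over 10 genes. Partners of the junctions, many of them expressed outside endothelium, showed the order too (5.34, 5.50 and 5.53, then 5.40, 5.65 and 5.58). So did tip cell genes (4.30, 4.70 and 5.02, then 4.10, 4.58 and 4.53) and venous genes (5.57, 5.59 and 5.70, then 4.95, 5.41 and 5.39). Endothelial transcription factors departed from it only in NaCl tumors (3.57, 3.92 and 3.85, then 3.69, 3.93 and 3.78). Arterial genes departed only in H89-treated tumors (2.22, 2.43 and 2.44, then 2.50, 2.56 and 2.33). Endoglin pathway genes departed in both groups (4.71, 4.64 and 4.70, then 4.66, 4.75 and 4.88). The part of other cell types in these levels was not tested.

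**Figure D3:**
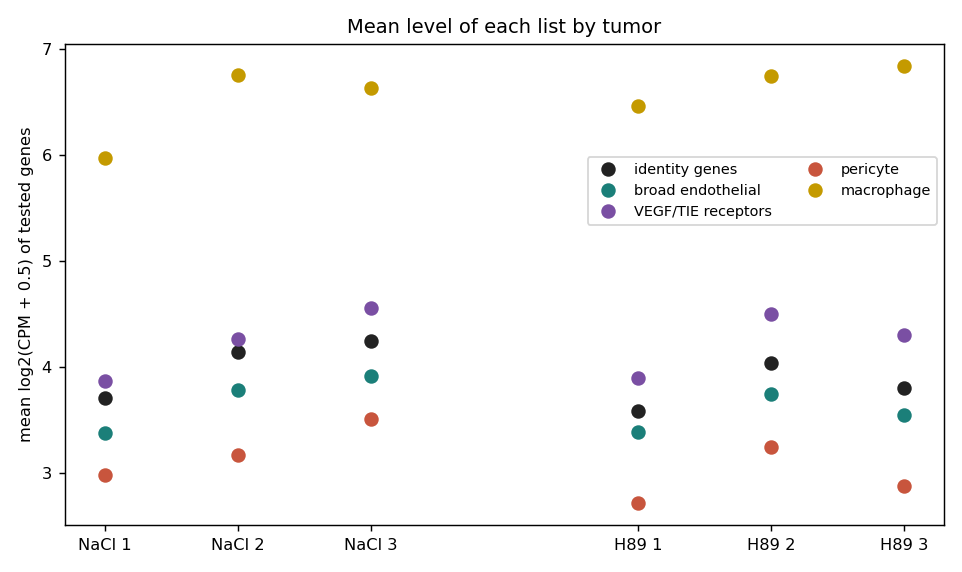
Mean of log2(CPM + 0.5) over the tested genes of 5 lists (y axis) in each of the 6 tumors (x axis), with 1 point per list and tumor. All 5 lists, the macrophage genes among them, are lowest in tumor 1 of each group.

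To compare the genes with other endothelial genes, the CPM of each was divided by the geometric mean of the 26 broad endothelial genes of the same tumor. That list includes Cd34, which many non-endothelial cells also carry, so the ratio is not a measure within endothelium alone. With 3 tumors against 3, the exact two-sided permutation test over 20 assignments cannot give a p below 0.1. The share of all genes without overlap on this ratio was not computed. On TMM-scaled CPM, 15.5% of all genes were lower and 15.2% higher without overlap. Cldn5 had log2 ratios of -1.60, -1.37 and -1.25 in NaCl tumors and -2.17, -1.95 and -2.02 in H89-treated tumors, a difference of -0.64 (exact p = 0.1). The groups did not overlap, and they did not overlap with the VEGF and TIE receptors (-0.77) or the other 9 genes (-0.61) as denominator. Esam differed by -0.30 (exact p = 0.1), from 0.51 ± 0.11 to 0.21 ± 0.05 (SD, n = 3), without overlap for any of the 3 denominators. Egfl7 differed by -0.21 without overlap, but the groups overlapped with both other denominators. Vwf stood on the other side, from -3.39 ± 0.42 to -2.72 ± 0.18 (SD, n = 3), a difference of 0.66 (exact p = 0.1), and overlapped only with the VEGF and TIE receptors as denominator. The remaining 6 genes overlapped between groups, with differences of -0.26 for Cdh5, -0.13 for Emcn, -0.10 for Pecam1 and for Robo4, -0.05 for Plvap and 0.22 for Eng (exact p from 0.2 to 1). With the VEGF and TIE receptors as denominator, Cdh5 (-0.39) and Emcn (-0.27) also lay lower without overlap (exact p = 0.1 for each), while with the other 9 genes as denominator both overlapped. The VEGF and TIE receptor denominator includes Nrp1 and Nrp2, and the part of non-endothelial cells in it was not tested.

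**Figure D4:**
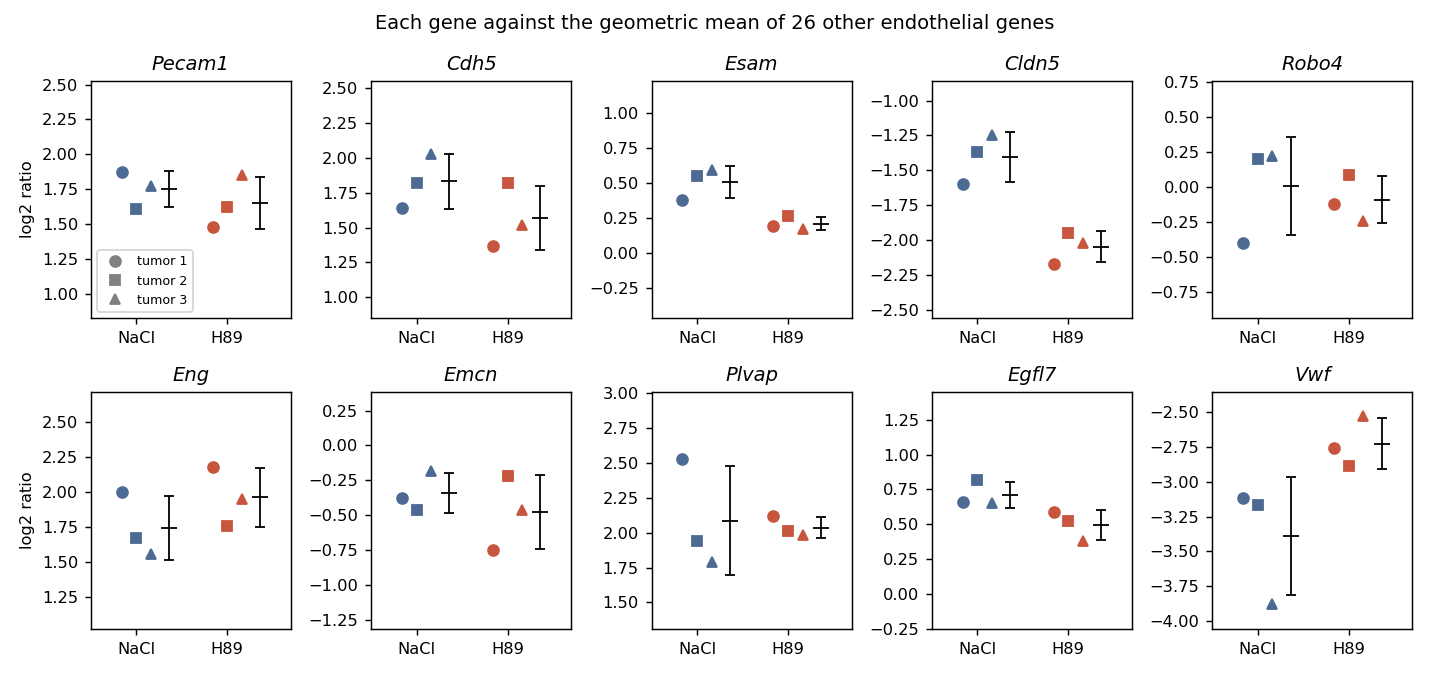
Log2 ratio of each of the 10 genes to the geometric mean of 26 other endothelial genes of the same tumor (y axis, each panel spans the same range of log2 units) in NaCl (blue) and H89-treated (red) tumors, with mean ± SD in black (n = 3). Esam, Cldn5 and Egfl7 lie lower, and Vwf higher, in H89-treated tumors without overlap. The share of all genes without overlap on this ratio was not computed.

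Related vascular lists were read in the same fit. Of the 26 broad endothelial genes, 4 were lower and 1 was higher at an unadjusted p under 0.05. Over all genes, 11.9% were lower and 13.1% higher at that threshold, the shares to set beside each list below. In 20 of the 26 the log2 fold change was below 0, beside 49.4% of all genes, and the median was -0.25. That median was -0.09 without NaCl tumor 3, -0.13 when H89-treated tumor 1 was left out and -0.40 without NaCl tumor 1. Gpihbp1, which anchors lipoprotein lipase on capillaries, was at 9.942, 15.85 and 18.36 CPM in NaCl tumors and 8.337, 10.51 and 9.212 CPM in H89-treated tumors (log2 fold change -0.72, edgeR unadjusted p = 0.0107, adjusted p = 0.105). Myct1, a membrane protein gene of endothelium, was at 2.787, 2.808 and 4.16 CPM and then 2.067, 2.128 and 2.327 CPM (-0.65, edgeR unadjusted p = 0.0209). Tspan18, a tetraspanin gene, was higher (0.65, edgeR unadjusted p = 0.0117). Cd34, also carried by many non-endothelial cells, was by far the most abundant of this list, at 818.5 to 907.1 CPM over the 6 tumors, with a log2 fold change of -0.09 (edgeR unadjusted p = 0.323).

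Among 15 tested transcription factors of endothelial cells, the median log2 fold change was 0.03. At an unadjusted p under 0.05, 2 were lower and 0 were higher, beside 11.9% and 13.1% of all genes. These were Klf4, a shear stress factor with roles in many cell types (-0.34, edgeR unadjusted p = 0.0069), and Tal1, shared with blood cell precursors (-0.68, edgeR unadjusted p = 0.0155). All 10 genes of sprouting tip cells had a log2 fold change below 0 (median -0.30), beside 49.4% of all genes. Of these 10, 1 passed an unadjusted p of 0.05, the Notch ligand gene Dll4 (-0.63, edgeR unadjusted p = 0.0466). Esm1, Lxn and Apln of this list had means of 372, 220.3 and 100.9 CPM in NaCl tumors, above Cdh5 (44.5 CPM). Which cells carried them was not tested. The venous list had 2 lower and 1 higher of 6 (median -0.40): Selp, Lrg1 (-0.99, edgeR unadjusted p = 0.0302), and the leukocyte adhesion receptor gene Vcam1 (0.48, edgeR unadjusted p = 0.00447). The arterial list had 1 higher of 7 (Fbln5, 0.36, edgeR unadjusted p = 0.0416, median -0.08). The 7 VEGF and TIE receptors had 0 in either direction (median -0.04, with Nrp2 at -0.04 and Nrp1 at 0.25). Of the lymphatic genes, Prox1, Ccl21a, Reln and Mmrn1 lay between 0 and 0.1609 CPM, while Lyve1, which some macrophages also carry, lay between 3.071 and 31.76 CPM (log2 fold change -0.32, edgeR unadjusted p = 0.682). Of the 4 lymphatic genes tested, Pdpn was lower (-0.62, edgeR unadjusted p = 0.00962) and Fgl2 higher (1.5, edgeR unadjusted p = 0.00488), both of which other cells also express. None of the genes in this paragraph had an adjusted p under 0.05 by edgeR.

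**Figure D5:**
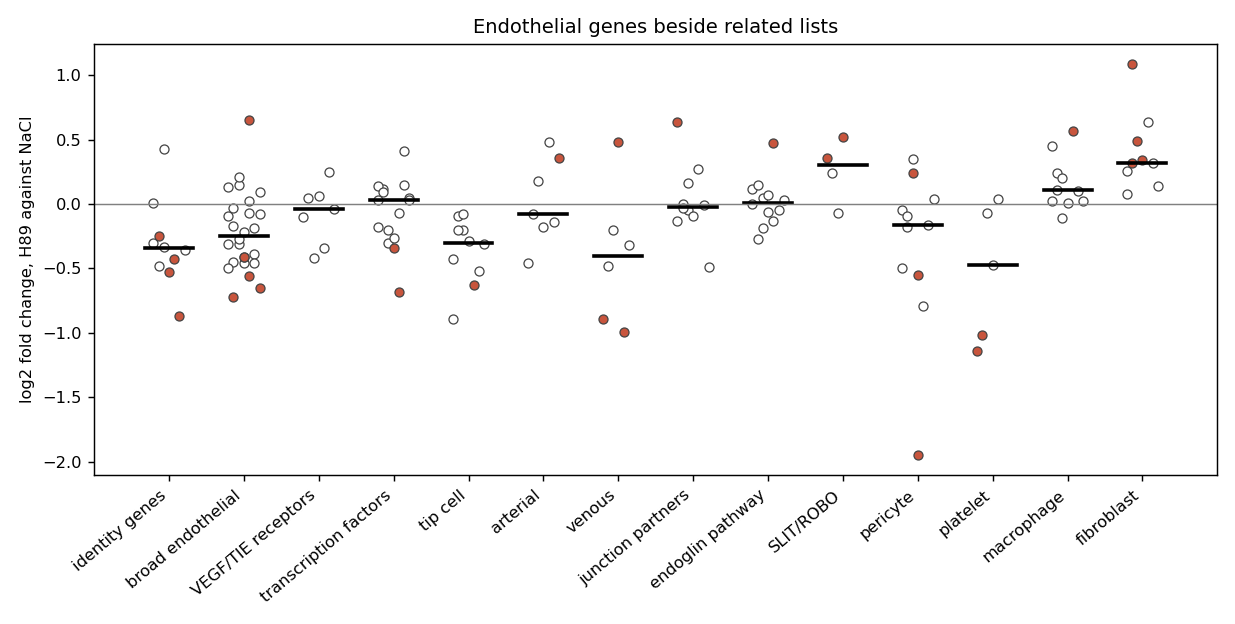
Log2 fold change of H89 against NaCl by edgeR (y axis) for each tested gene of 14 lists (x axis), with filled points at an unadjusted p under 0.05 and a black line at each list's median. The median is -0.34 for the 10 identity genes, -0.25 for the broad endothelial genes and 0.32 for the fibroblast genes.

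Genes of other cells that could carry or dilute these signals were counted over whole lists. Over all genes, 11.9% were lower and 13.1% higher at an unadjusted p under 0.05. Pericyte genes had 2 lower and 1 higher of 11 (median -0.16): Kcnj8 (-1.95, edgeR unadjusted p = 0.00937) and Mcam, which endothelium also expresses (-0.55, edgeR unadjusted p = 0.0421), were lower and Pdgfrb higher (0.24, edgeR unadjusted p = 0.0426). Platelet genes, which bear on Vwf, Pecam1, Esam and Selp, had 2 lower of 5 tested (median -0.47), Pf4 (-1.14, edgeR unadjusted p = 0.00136) and Ppbp (-1.02, edgeR unadjusted p = 0.014). Their summed levels were 31.59 to 47.64 CPM in NaCl and 23.67 to 27.92 CPM in H89-treated tumors. Pf4 alone was at 30.34, 18.92 and 24.85 CPM in NaCl tumors and at 10.33, 15.39 and 9.729 CPM in H89-treated tumors. The remaining tested platelet genes had log2 fold changes of -0.07 (Itga2b), -0.47 (Gp1ba) and 0.04 (Gp1bb). The other 5 genes of the list, Gp9, Gp5, Gp6, Treml1 and Tubb1, were under the filter, at most 0.4304 CPM (Gp9, NaCl tumor 3). Pf4 made up most of the summed level in NaCl tumors, and the amount of platelets was not tested. Macrophage genes, which bear on Eng and Pecam1, had 1 higher of 10 (Fcgr1, 0.57, edgeR unadjusted p = 0.0347), with summed levels of 1182 to 2032 and 1703 to 2082 CPM. Fibroblast genes had 4 higher of 9 (median 0.32, with Postn 1.09 and Col3a1 0.49), with summed levels of 2450 to 2603 and 2973 to 3528 CPM that did not overlap. T cell genes had 4 higher of 7 (median 1.20, with Cd8a 1.76 and Cd3g 1.64), with summed levels of 14.59 to 31.69 and 29.93 to 74.4 CPM. Their part in the endothelial values was not tested.

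Tissue around the tumor differed in single tumors. H89-treated tumor 1, the lowest of its group for 8 of the 10 genes, held 25.11 CPM of summed skeletal muscle genes beside 2.661 to 4.547 CPM in the other 5 tumors, and 38.97 CPM of adipocyte genes beside 17.65 to 36.72 CPM. Of all genes, 13.1% were higher at an unadjusted p under 0.05. In these lists 1 gene each was higher at an unadjusted p under 0.05, Acta1 of 5 (12.09 CPM in that tumor, at most 0.5504 CPM in the others) and Cfd of 4 (7.321 CPM, at most 0.4433 CPM in the others). Without it, 1 of the 10 endothelial genes (Cldn5) was lower at an unadjusted p under 0.05 and the median log2 fold change of the 10 was -0.25. Erythroid genes, a trace of blood, summed to 235.1 CPM in H89-treated tumor 3 beside 22.38 to 103.9 CPM in the others, with 0 of 4 genes past an unadjusted p of 0.05. In the keratinocyte list, the difference lay between the groups and not in single tumors. Cdsn was lower (-2.15, edgeR adjusted p = 0.0288), at 41.21, 50.65 and 68.36 CPM in NaCl tumors and 14.05, 10.64 and 13.22 CPM in H89-treated tumors. The 8 genes of that list under the filter were at most 1.064 CPM (Trp63, H89-treated tumor 2), with Krt1 and Ivl at 0 in all tumors. The part of attached tissue in the endothelial values was not tested.

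The genes whose profile over the 6 tumors came nearest to the mean profile of the 10 were sought among 10456 genes with a mean of at least 5 CPM, by the root mean square difference of centred log2(CPM + 0.5). Bcap29 (0.0531), Mtcl1 (0.0585), Xpot (0.064) and Tie1 (0.0646) came first, followed by Uxs1, Notch4, Snn, Zfp719, Slc1a4 and Pnrc2. For comparison, the mean profile itself had a root mean square of 0.238 around its centre. Tie1, an orphan receptor gene of endothelium, was at 11.35, 16.26 and 17.15 CPM in NaCl tumors and 10.81, 15.0 and 11.08 CPM in H89-treated tumors. Of these 10 genes, 1 was in an endothelial list (Tie1) and 9 were in none of the lists, although Notch4 is known from endothelium. A likeness over 6 tumors is a description.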

How the data were processed

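RNA of frozen tumors was sequenced by the authors on a BGISEQ-500, and 1 table of 23557 genes in 6 tumors was deposited. Per the submitters' processing notes, kallisto, DESeq2 and the GRCm38 build were used, with versions and annotation not given in the sources used here. What the authors deposited under the name TPM was read as estimated counts, because the totals lie between 27067349 and 31958793 per tumor and TPM would sum to 1000000. After rounding, the 13118 genes averaging 0.5 CPM or more were tested with edgeR 4.0.16 (TMM, glmQLFit, glmQLFTest, treatment as the only term) in R 4.3.3, with Benjamini-Hochberg adjustment over all of them. The SE was derived from the fold change and its quasi-likelihood F value. The fit was tested on simulated data. Printed CPM are not TMM-scaled. At these totals 1 count is worth at most 0.0369 CPM, and counting error was not separated from the spread between tumors.

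The 10 genes and the 19 other lists were chosen with earlier results of these data known. In each other list, the text names genes with an adjusted p under 0.05 or, failing that, up to 2 of the smallest p in each direction under an unadjusted 0.05, besides partner genes of the 10 and the 10 genes of nearest profile. Cd34, the lymphatic markers, Gdf2, Bmp10, Krt1 and Ivl were named after their values were seen. The same holds for Nrp1, Nrp2, Flt1, Esm1, Lxn, Apln, Trp63 and the platelet genes under the filter. Hbb-bs and Trac were not analysed here. Alternatives were no filter, at least 5 CPM, median ratio and quantile normalization, DESeq2 1.42.0, limma 3.58.1 on log2(CPM + 0.5, 1 or 0.1), a replicate block, and each tumor left out. Group overlap after TMM scaling was added after seeing the data. Positions are those of GENCODE M21, where all 10 genes matched by symbol.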

Additional observations from a re-analysis of the deposited data

How the results depend on the processing

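The median log2 fold change of the 10 endothelial genes stayed below 0 under all 15 alternatives, from -0.21 to -0.56 with a tumor left out. The number of the 10 lower at an unadjusted p under 0.05, 4 in the reported fit, was 1 with a mean of at least 5 CPM (8 genes tested, since Cldn5 and Vwf fell under it) and 1 in each limma fit on log2(CPM + 0.5), log2(CPM + 1) and log2(CPM + 0.1), and ranged from 0 to 6 with a tumor left out. The share of all genes at an unadjusted p under 0.05 was computed for the reported fit only. DESeq2 gave 1 of the 10 an adjusted p under 0.05 (Cldn5). Over all genes, 208 had an adjusted p under 0.05 by edgeR (95 lower, 113 higher), 80 after quantile normalization (25 and 55), 171 by limma on log2(CPM + 0.5) (28 and 143), 1392 by DESeq2, 0 with the replicate block, and 0 to 12 with a tumor left out. Causes were not tested, except that leaving out a tumor leaves fewer samples.

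The labels do not say whether the replicate numbers pair the tumors. Deviations of same-numbered tumors from their group means correlated at 0.1638, 0.06247 and -0.02541 across genes, and those of differently numbered tumors at -0.3741 to 0.3494. With 3 tumors per group, these values cannot decide whether the numbers pair the tumors. With the number as a replicate block, 5 of the 10 genes were lower at an unadjusted p under 0.05 (Pecam1 added, log2 fold change -0.30) and 0 had an adjusted p under 0.05. The log2 fold change of Eng turned to -0.00089 with no filter and -0.0046 by DESeq2, and ranged from -0.029 (H89-treated tumor 1 left out) to 0.049, turning also with NaCl tumor 1 left out (-0.017). The log2 ratio to other endothelial genes ranged, with a tumor left out, from -0.26 to 0.0044 for Emcn, turning when H89-treated tumor 1 was left out, reached 0.012 for Robo4 (NaCl tumor 3 left out), and ranged from -0.20 to 0.17 for Plvap (NaCl tumor 1 left out), whose ratio to the other 9 genes was 0.046. Of 148 single-gene fold changes under an alternative, 112 kept their direction and side of an unadjusted p of 0.05, 26 lost it, 6 gained it and 4 turned direction.

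Depth limits Vwf (27 to 58 counts) and Cldn5 (61 to 167) most, and 3 tumors per group limit every comparison.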
